A study of Mus musculus with 4 samples.

Results

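The immediate early genes examined here were Egr1, Egr2, Egr3, Nr4a1, Nr4a2, Srf, Ier2, Ier3, Ier5 and Myc. They were taken as every non-control probe whose gene name in the files, or whose current RefSeq symbol, was one of these 10 names, which gave 14 probes of 41174. The arrays name 27670 genes in all. RNA came from B16-F10 cells, a mouse melanoma line grown in culture, and was hybridised to 4 Agilent 2-colour arrays. Cy5 labelled RNA of cells given a goat polyclonal antibody against mouse TIM3 (an immune checkpoint receptor), while Cy3 labelled RNA of cells from that passage given unspecific goat IgG. Both were given at 15 ug/ml for 2 h, although the labels do not repeat the antibody protocol for replicate 3. The source name of replicate 1 calls the antibody an agonist, a word that those of the other replicates leave out. Arrays 1 to 4 are biological replicates from passages 14, 16, 18 and 19, where a replicate is a different passage of 1 line, so p-values measure the spread between passages. Cy5 always held the antibody sample, so an effect of the antibody and a dye effect of a probe cannot be told apart. The 4 arrays lay on 1 slide and were read in 1 scan. All 7 melanocyte markers examined, among them Mlana, Pmel and Tyrp1, passed the background flag on every array with either dye. Of 13 markers of T cells, macrophages and fibroblasts, Ptprc, Cd3g, Adgre1 and Dcn had no probe well above background on any array, while Cd3e, Cd4, Cd68 and Col1a1 had one on every array in both channels. By the brightest probe of each gene, 5 of the 7 melanocyte markers rose, Mlana (0.58), Pmel (0.51), Dct (0.48), Tyrp1 (0.41) and Sox10 (0.18 in log2 ratio, although its other probe fell, -0.30). By that choice 27.6% of all gene names were called. In the deposited processed signals only Mlana passed among these 5 (0.30, limma, adjusted p = 0.0178). There Pmel had 0.19, Dct 0.10, Tyrp1 0.12 and Sox10 0.18. Of the other markers Col1a1 (0.13) and Col3a1 (0.12) rose and Cd14 (-0.18) fell by the brightest probe. Those of Col3a1 and Cd14 were near the background, and the other tested probes of Col1a1 (-0.02) and Col3a1 (0.07) were not called. In the deposited processed signals Col3a1 passed (0.45, adjusted p = 0.0193), while Col1a1 (adjusted p = 0.0653) and Cd14 (adjusted p = 0.0717) did not. The part of these cell type markers in the other results was not tested. The question was whether genes that cells switch on first after receptor stimulation differed between antibody and IgG at this time.

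Immediate early genes are transcribed from factors already present in the cell, and they respond within minutes to growth factors, stress or receptor signals, often for a short time. MAP kinase signalling acts through the transcription factor SRF and its ETS partners at DNA elements known as CArG boxes or serum response elements. The proteins made are largely transcription factors: the zinc finger proteins of the EGR family, the orphan nuclear receptors of the NR4A family, and the E-box-binding factor MYC. In pigment cells Nr4a1 and Nr4a2 are also known as targets of melanocortin and cyclic AMP signalling.

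**Figure D1:**
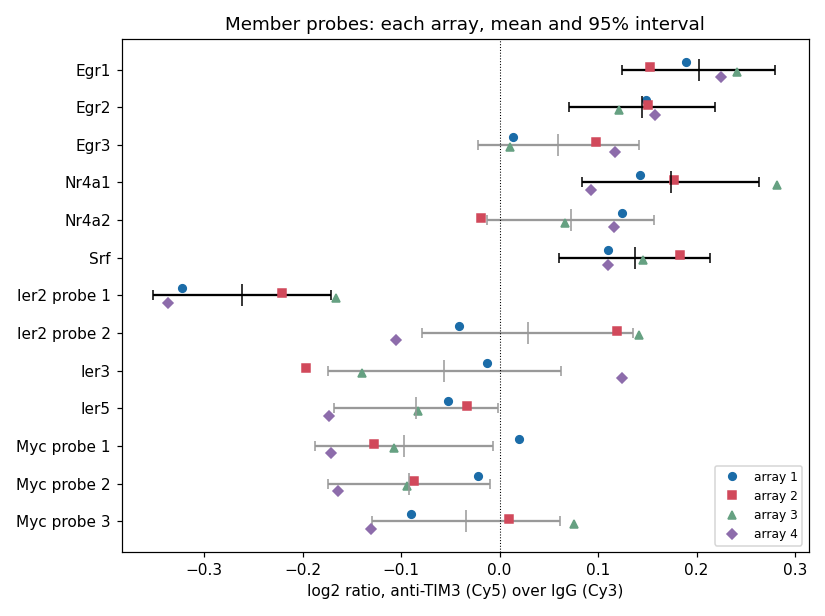
Log2 ratio of the anti-TIM3 channel over the IgG channel for the 13 tested probes, with 1 marker per array, and the mean with its 95% confidence interval in black where the adjusted p was under 0.05 and in grey otherwise. Egr1, Egr2, Nr4a1 and Srf lie above 0 on all 4 arrays and the brighter Ier2 probe lies below 0 on all 4, while Ier3 and the dimmer Ier2 probe lie on both sides.

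Promoters of Egr2, Srf and Nr4a1, 3 of the 4 genes that rose, are shown for the elements named above. RefSeq promoters (build GRCm38.p6) were matched for 6 of the 10 genes, and those of Egr1, Egr3, Ier2 and Myc were not used here. The 250 bases before the start were searched on both strands for the CArG box and for the EGR-binding motif GCGNGGGCG, in capitals here. The motifs did not overlap in the sequences shown.
Egr2, chr10:67537619-67537868, plus strand: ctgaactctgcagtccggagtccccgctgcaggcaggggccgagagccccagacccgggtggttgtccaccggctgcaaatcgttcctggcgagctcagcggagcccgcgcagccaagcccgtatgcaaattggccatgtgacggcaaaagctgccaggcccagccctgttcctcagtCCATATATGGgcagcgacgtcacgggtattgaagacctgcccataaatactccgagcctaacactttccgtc
Srf, chr17:46556163-46556412, minus strand: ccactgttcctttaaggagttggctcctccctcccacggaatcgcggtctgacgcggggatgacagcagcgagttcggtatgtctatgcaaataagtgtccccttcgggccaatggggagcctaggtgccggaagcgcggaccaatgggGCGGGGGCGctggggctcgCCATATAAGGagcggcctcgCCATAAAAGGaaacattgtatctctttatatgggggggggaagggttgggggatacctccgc
Nr4a1, chr15:101266596-101266845, plus strand: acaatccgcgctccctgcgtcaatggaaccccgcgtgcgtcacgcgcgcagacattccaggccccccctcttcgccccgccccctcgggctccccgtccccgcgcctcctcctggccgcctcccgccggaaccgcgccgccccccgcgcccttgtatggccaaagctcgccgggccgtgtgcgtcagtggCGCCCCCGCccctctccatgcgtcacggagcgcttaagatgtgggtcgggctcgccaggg
Egr2 is shown at 1 of its 5 annotated starts, and 4 of the 5 had a CArG box. Srf held 2 CArG boxes, which begin 82 and 62 bases before its start, and 1 EGR motif. Nr4a1 held 1 EGR motif, on the opposite strand, and Nr4a2 held 1 on its own strand, both without a CArG box. The Ier3 and Ier5 promoters held neither. A CArG box was present in the same window of 1.47% of 32851 RefSeq promoters and the EGR motif in 4.70%. The CRE motif TGACGTCA, searched in the same way, was found in 0 of the 6 genes' windows and in 1.55% of all. A match describes the letters of a window and does not show that a factor binds there.

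Egr3, Ier2 and Myc were read by more than 1 probe, and the oligonucleotides of the pair that differed most are given first. They are shown by their first 30 bases, with the longest unbroken run of G and C within them in capitals. The Myc probe nearest the start of the gene is given whole, in lower case. The files' coordinates are those of mm7, and exon or untranslated region is not annotated there.
Ier2, brighter probe, chr8:83243584-83243618, minus strand: ctgaactgaaccaatcaaatctGCGCagag
Ier2, dimmer probe, chr8:83243758-83243816, minus strand: CCCCCCGGGaagtttaagatcattcttaac
Myc, dimmest of 3 probes, chr15:62063665-62063724, plus strand: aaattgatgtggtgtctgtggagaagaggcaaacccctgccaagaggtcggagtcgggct
The gap between the Ier2 probes is 139 bases, and that between the Myc probe shown and the next 432 bases.

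Of the 13 tested probes, 4 rose (Egr1, Egr2, Nr4a1 and Srf), 1 fell (the brighter Ier2 probe) and the others did not pass. Testing required that one dye or the other be well above background on 3 or more arrays. It was called at an adjusted p under 0.05, from limma, adjusted by Benjamini-Hochberg across the 26545 probes tested. Over all of those, 27.8% were called, 14.2% higher and 13.6% lower, so 5 of 13 (38.5%) is to be read against that share. The 5 called ratios lay between 0.83- and 1.15-fold of IgG. Against a minimum change of 1.2-fold 0 of the 13 passed (limma), and 0 had an unadjusted p under 0.05. The same sign was seen on 4 of 4 arrays for 8 of the 13 probes and for 47.7% of all tested probes. Taking the brightest probe of each of the 10 genes, 4 rose, 1 fell, and their log2 ratios had a median of 0.07. The same choice over all 17789 gene names gave 14.8% higher and 12.8% lower, with a median of 0.01.

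Egr1, an EGR transcription factor and a widely used marker of MAP kinase signalling, was the member with the largest rise. Its probe lies on chromosome 18 from 35240842 to 35240901 (mm7). On arrays 1 to 4 the log2 ratio of antibody over IgG was 0.19, 0.15, 0.24 and 0.23, a mean of 0.20 ± 0.04 (SD, n = 4; limma, adjusted p = 0.00411), or 15.0% more signal with a 95% confidence interval from 9.02 to 21.4%. Every array was above 0, between 0.15 and 0.24. A larger absolute ratio was seen for 9.84% of all tested probes. The normalised log2 levels were 9.45, 10.33, 10.46 and 10.26 in the antibody channel, against 9.26, 10.18, 10.22 and 10.03 in the IgG channel. Array 1 was lowest in both channels, and the channels overlapped over the 4 arrays although the antibody channel was the higher on each. In the ratios of the deposited processed signals Egr1 had 0.23, 0.08, 0.18 and 0.20, with a mean of 0.18 that passed (adjusted p = 0.0440). Over all probes 19.7% were called in those signals, 10.8% higher and 8.96% lower, and of the members Egr1, Srf and the brighter Ier2 probe were.

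Egr2, a second EGR factor, had log2 ratios of 0.15, 0.15, 0.12 and 0.16, with a mean of 0.14 ± 0.02 (SD, n = 4; limma, adjusted p = 0.0128), or 10.5% more signal. Its probe, on chromosome 10 from 67145376, was printed 10 times on each array, so that the error within an array can be read as well. All 39 spots that were not flagged as outliers had a ratio above 0. The SD between spots of an array was 0.04 to 0.07, against an SD of 0.02 between the 4 array means. The Egr2 call was close to the threshold in other settings: it did not pass without array 2 (adjusted p = 0.0501) nor with the authors' processed signals as deposited (0.16, adjusted p = 0.0639).

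Egr3, another EGR factor, was near the background. Its tested probe, on chromosome 14 from 64726656, was well above background on 3 arrays in the antibody channel and on 1 in the IgG channel. The log2 ratios of that probe were 0.01, 0.10, 0.01 and 0.12 (mean 0.06 ± 0.06, SD, n = 4; limma, adjusted p = 0.238), and its sign turned with the authors' processed signals (-0.09, adjusted p = 0.724). The other Egr3 probe, 3092 bases away, was well above background on 0 arrays in either channel and was not tested. The remaining family member Egr4 was not tested either. Among the NAB corepressors, which bind EGR proteins, Nab2 rose (0.14 ± 0.07, SD, n = 4; adjusted p = 0.0218) and Nab1 had 0.05 (adjusted p = 0.323). Nab2 passed in the deposited processed signals (0.19, adjusted p = 0.0476) but not once ratios were detrended on intensity and base content.

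**Figure D2:**
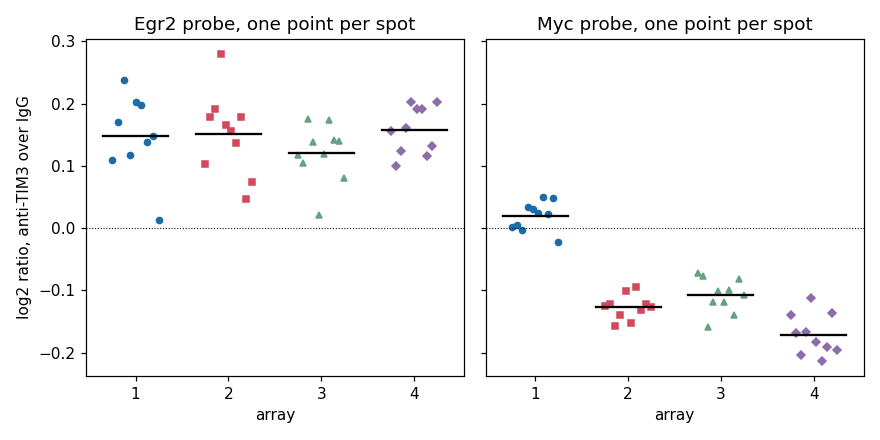
Log2 ratio of antibody over IgG for each unflagged spot of the Egr2 probe (left) and of the brightest Myc probe (right), by array, with the array mean as a line. Egr2 spots lie above 0 on every array, whereas Myc spots lie below 0 on arrays 2 to 4 and around 0 on array 1.

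Nr4a1 (Nur77), the first NR4A nuclear receptor, had log2 ratios of 0.14, 0.18, 0.28 and 0.09 at a probe on chromosome 15 from 101260484. The mean was 0.17 ± 0.08 (SD, n = 4; limma, adjusted p = 0.0135), or 12.8% more signal with an interval from 5.99 to 20.0%. Array 3 was highest and array 4 lowest, and all were above 0. This rise rested on the setting more than those of Egr1 and Srf. It was 0.07 with the authors' processed signals (adjusted p = 0.399), where array 1 had -0.07, it was 0.11 with a narrower loess span (adjusted p = 0.123), and 0.08 once ratios were detrended on intensity and base content (adjusted p = 0.205). Without array 3 it was 0.14 (adjusted p = 0.0578). The probe is at a mean log2 intensity of 14.9, brighter than 97.6% of tested probes.

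Nr4a2 (Nurr1), its relative, had 0.12, -0.02, 0.07 and 0.12 at a probe on chromosome 2 from 57108976. The mean of 0.07 ± 0.07 (SD, n = 4; limma, adjusted p = 0.175) did not pass, and its 95% confidence interval from -0.01 to 0.16 includes changes as large as that of Egr2. Nr4a3, the family's last member, had -0.04 ± 0.12 (adjusted p = 0.593) at a probe near the background. Whether the NR4A genes differ from each other in their response was not tested.

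Srf, the transcription factor that binds the CArG boxes of many immediate early genes, its own included, had log2 ratios of 0.11, 0.18, 0.15 and 0.11. The mean was 0.14 ± 0.03 (SD, n = 4; limma, adjusted p = 0.0182), or 9.96% more signal, at a probe on chromosome 17 from 44675728. The ratios had the same sign on every array and kept it with the authors' processed signals (0.14, adjusted p = 0.0427). Detrended on intensity and base content, the mean was 0.24 (adjusted p = 0.00203). Srf did not pass without array 2 (adjusted p = 0.0829) or without array 3 (adjusted p = 0.0628).

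Of the cofactors of SRF, 4 of 6 were tested, and by the brightest probe of each gene 0 were called (limma), with 0 at an unadjusted p under 0.05. A dimmer Elk3 probe did rise (0.18 ± 0.06, SD, n = 4; adjusted p = 0.00829). The ETS factors Elk3 and Elk4 had -0.05 and 0.10, and the actin-regulated coactivators Mrtfa and Mrtfb had -0.04 and 0.07. Adjusted p-values of these 4 were 0.147 to 0.413, though Mrtfb passed in the deposited processed signals (0.20, adjusted p = 0.0477), while Elk1 and Myocd were not tested. Among actin-type SRF targets, which encode cytoskeletal and contractile proteins, 1 of 11 rose and 0 fell by the brightest probe, and the median was 0.00. Over all gene names 14.8% were higher and 12.8% lower by that choice. A dimmer Tpm1 probe, of a tropomyosin gene, fell (-0.21 ± 0.03, SD, n = 4; adjusted p = 0.00302). The one that rose was Cnn1, the calponin gene, at a probe near the background (0.11 ± 0.06, SD, n = 4; adjusted p = 0.0452), and its ratio was 0.74 with the authors' processed signals (adjusted p = 0.0149) and -0.04 under median centring without loess. The median of all tested probes under that centring was 0.15, but ratios there differed with intensity. Mrtfb, at a mean log2 intensity of 7.51, had 0.10 and Elk3, at 12.6, had 0.33. That median mixes probes of all intensities, so a probe is not matched to it by brightness.

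Ier2, which encodes a nuclear immediate early protein, was the member that fell and the one with the largest absolute ratio. At its brighter probe the log2 ratios were -0.32, -0.22, -0.17 and -0.34, a mean of -0.26 ± 0.08 (SD, n = 4; limma, adjusted p = 0.00277), or -16.6% with an interval from -21.7 to -11.2%. All arrays were below 0, and the levels did not overlap: 11.68, 11.83, 11.94 and 11.71 in the antibody channel, against 12.00, 12.05, 12.10 and 12.04 in the IgG channel. Among all tested probes, 6.2% had every antibody level below every IgG level and 6.37% had every one above. Ier2 passed in the deposited processed signals (-0.23, adjusted p = 0.0299) and without any single array (adjusted p up to 0.0170). Under median centring without loess it had 0.07, where the median of tested probes of all intensities was 0.15. The dimmer Ier2 probe, which lies 5′ of the other in the gene, had -0.04, 0.12, 0.14 and -0.11 (mean 0.03 ± 0.12; adjusted p = 0.678). It was well above background on 4 arrays in the antibody channel and on 0 in the IgG channel, so its ratio rests on IgG signals near the background. The mean is 1.02-fold, and its confidence interval from -0.08 to 0.14 in log2 ratio includes 0, so no direction can be read from it.

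Ier3, which encodes a stress-induced regulator of cell survival, had -0.01, -0.20, -0.14 and 0.12 at a probe on chromosome 17 from 33924245. Its mean was -0.06 ± 0.14 (SD, n = 4; limma, adjusted p = 0.443), with array 4 on the other side of 0 from the rest, and this SD was the largest of the 13 probes. Ier5, which encodes a regulator of heat shock factor activity, had -0.05, -0.03, -0.08 and -0.17 at a probe on chromosome 1 from 155059487. All 4 arrays were below 0, but the mean of -0.09 ± 0.06 did not pass (adjusted p = 0.114). The probes of its paralog Ier5l disagreed: the brighter had -0.08 ± 0.05 (adjusted p = 0.124) and the dimmer rose (0.15 ± 0.08, adjusted p = 0.0210).

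Myc, which encodes the growth-promoting factor MYC, was read by 3 probes on chromosome 15. The brightest, printed 10 times, had 0.02, -0.13, -0.11 and -0.17 (mean -0.10 ± 0.08, SD, n = 4; limma, adjusted p = 0.0998). On arrays 2 to 4 all 10 spots of each array were below 0, while on array 1 8 of 10 were above 0, and the SD between spots was 0.02 to 0.03. The spread between spots is technical and does not measure that between passages. Of the fits that leave out 1 array, the probe passed in the one without array 1 (-0.14, adjusted p = 0.0395) and in none of the others. With limma's array weights it passed as well (-0.11, adjusted p = 0.0480). The next probe, 39 bases away, had -0.02, -0.09, -0.09 and -0.16 (mean -0.09 ± 0.06, adjusted p = 0.0892). The dimmest had -0.09, 0.01, 0.08 and -0.13 (mean -0.03 ± 0.09, adjusted p = 0.571), so the arrays with the higher ratios were not those of the other probes. Under median centring the 3 Myc probes had 0.28, 0.24 and 0.16, against 0.15 over probes of all intensities. Elk3, as bright as the brightest Myc probe (log2 intensity 12.6), had 0.33 there and -0.05 in the main fit.

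MYC acts as a dimer with MAX, and MXD proteins, MNT and MLX belong to the same network. Of 8 such genes 1 rose (Mxd1, 0.15 ± 0.09, SD, n = 4; limma, adjusted p = 0.0286) and 2 fell, Mlx (-0.13 ± 0.03, adjusted p = 0.0213) and Mnt (-0.13 ± 0.08, adjusted p = 0.0412). In the deposited processed signals Mlx passed (-0.17, adjusted p = 0.0284), but Mxd1 (0.12, adjusted p = 0.147) and Mnt (-0.13, adjusted p = 0.0715) did not. The dimmer Mxd1 probe was not called (0.02), while that of Mlx fell (-0.13). A dimmer Mxd4 probe rose (0.22) and a dimmer Mxd3 probe fell (-0.13). With median centring Mlx and Mnt had 0.19 and 0.20, against a median of 0.15 over tested probes of all intensities. Mrtfa, of like brightness (log2 intensity 11.8, against 11.7 and 11.8), had 0.29 there. The paralogs were not called: Mycl had 0.17 ± 0.18 (adjusted p = 0.0676) at a probe near the background, and Mycn was not tested. In the deposited processed signals Mycl passed (0.47, adjusted p = 0.0362). Of 15 known MYC target genes 3 rose and 4 fell, with a median of -0.04. By the brightest probe 27.6% of all gene names were called, 14.8% higher and 12.8% lower, the share to set beside both lists. Ldha (0.72 ± 0.07), Odc1, of polyamine synthesis (0.23 ± 0.09), and Npm1, a nucleolar protein gene (0.22 ± 0.12), were higher. For Odc1 this holds only for the brightest probe, since its other 2 probes fell (-0.35 ± 0.05 and -0.18 ± 0.03, SD, n = 4; adjusted p = 0.000615 and 0.00631). The second Ldha probe rose by less (0.15) and that of Npm1 was not called (0.08). The brightest probes averaged over 16 in log2 intensity. With the authors' processed signals Odc1 had 0.08 (adjusted p = 0.322) and Npm1 -0.07 (adjusted p = 0.318). Cdk4, of the cell cycle (-0.42 ± 0.21), Shmt2, a mitochondrial enzyme of serine metabolism (-0.29 ± 0.14), and Ncl, nucleolin (-0.21 ± 0.19), were lower. With median centring they had 0.01, 0.10 and 0.46. The median of 0.15 there is over probes of all intensities and is not matched to their brightness. In the deposited processed signals Cdk4 (-0.36, adjusted p = 0.0477), Shmt2 (-0.27, adjusted p = 0.0406) and Ncl (-0.37, adjusted p = 0.0491) each passed as lower.

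**Figure D3:**
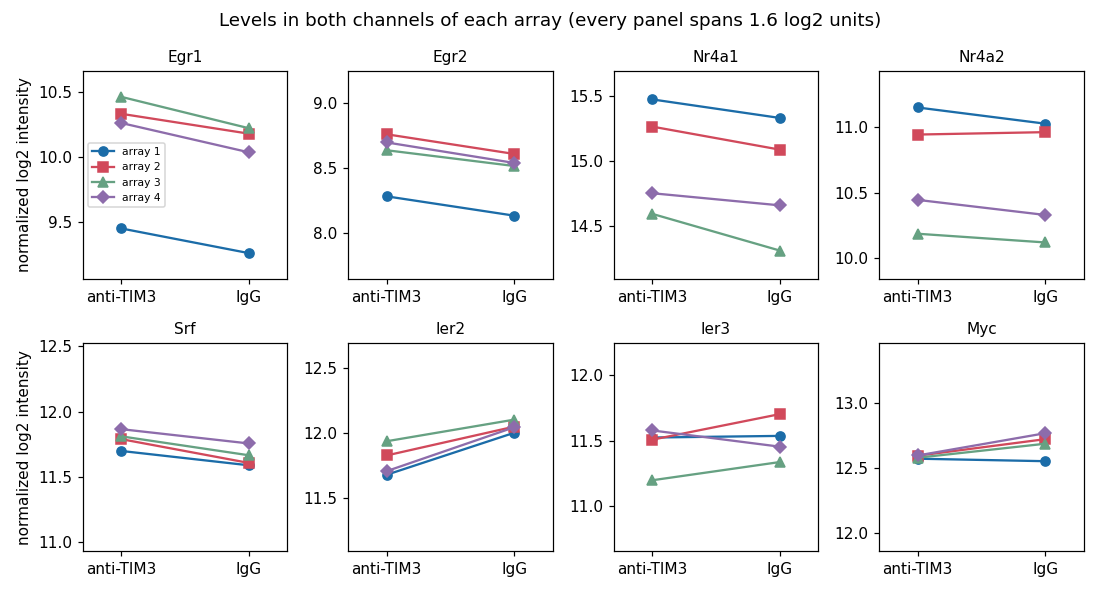
Normalised log2 intensity of 8 genes (brightest probe) in the anti-TIM3 channel and in the IgG channel, with a line joining both channels of an array. Every panel spans 1.6 log2 units: Egr1 was lowest on array 1 in both channels, and Nr4a1 and Nr4a2 were higher on arrays 1 and 2 than on arrays 3 and 4 in both.

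The levels of several members differed more between passages than between antibody and IgG. In the IgG channel alone Nr4a1 had 15.33, 15.09, 14.31 and 14.66 on arrays 1 to 4, a range of 1.02 on the log2 scale, which is 5.86 times its mean ratio. Nr4a2 had 11.03, 10.96, 10.12 and 10.33 in that channel, a range of 0.91, and stood higher on arrays 1 and 2, as Nr4a1 did. Egr1 had a range of 0.96 and Egr2 of 0.47, with array 1 lowest for both. A larger range in the IgG channel was found for 0.853% of tested probes in the case of Nr4a1, 1.03% for Egr1, 1.17% for Nr4a2 and 10.4% for Egr2, and the median range of all tested probes was 0.23. Srf (0.17), the brighter Ier2 probe (0.10) and the 3 Myc probes (0.09 to 0.21) varied less than that median. These levels were scaled between arrays by quantiles of mean intensity. In the deposited IgG signals, which were not scaled between arrays, the median log2 range was 0.48, and the ranges of Nr4a1 (1.32), Nr4a2 (1.204) and Egr1 (0.78) were above it, while that of Egr2 (0.36) was below. A larger one was then found for 5.23% of tested probes in the case of Nr4a1, 6.64% for Nr4a2, 19.6% for Egr1 and 70.4% for Egr2. The brighter Ier2 probe (0.25), Srf (0.19) and the 3 Myc probes (0.16 to 0.31) stayed below the median there. The deposited signals of Nr4a1 were 35706, 26254, 17584 and 19893 in the antibody channel, against 37360, 25143, 14965 and 19210 in the IgG channel. For Egr1 they were 622, 902, 1031 and 878 in the antibody channel, against 529, 854, 908 and 762 in the IgG channel. Passage and array are the same factor here, so a difference between passages cannot be told apart from one between arrays. For 12 of the 13 probes the range in the IgG channel was larger than the mean ratio, as for 87.5% of all tested probes. With the channels fitted separately, so that the pairing of both samples of a passage is not used, 0 of the 13 probes were called, and 2 had an unadjusted p under 0.05 (limma; the adjusted p of Egr1 was 0.748 and that of Ier2 0.0706).

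**Figure D4:**
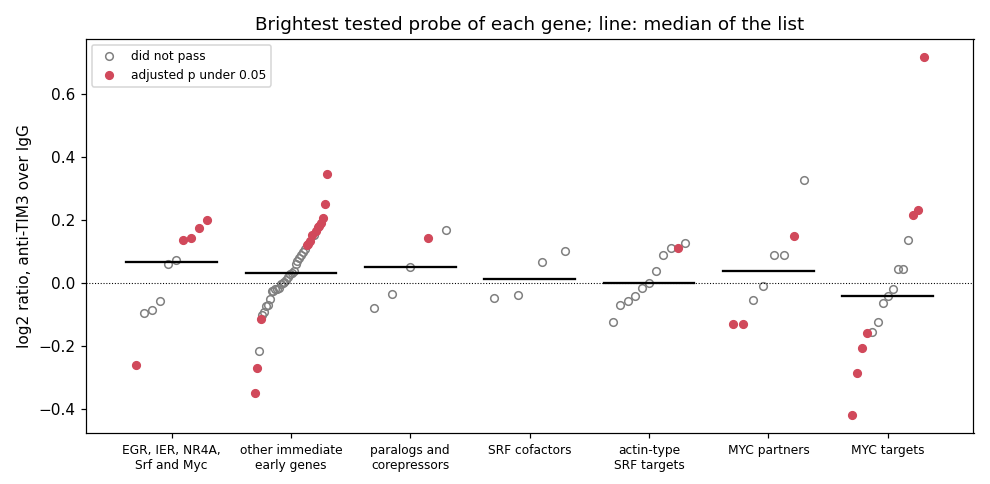
Log2 ratio of antibody over IgG at the brightest tested probe of each gene, by gene list, with filled points for an adjusted p under 0.05 and a line at the median. The 10 genes described here have a median of 0.07, and the medians of the other lists lie between -0.04 and 0.05.

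Among other immediate early genes, 40 of 42 were tested, 11 rose and 3 fell (limma), with a median of 0.03, where 27.6% of all gene names were called. The AP-1 gene Junb had 0.31, 0.29, 0.39 and 0.39 on the 4 arrays, a mean of 0.35 ± 0.05 (SD, n = 4; adjusted p = 0.000663). Its other probe, of similar brightness, rose by less (0.12, adjusted p = 0.0425). Spry2, a feedback inhibitor of receptor tyrosine kinase signalling, had 0.24, 0.25, 0.26 and 0.25 (mean 0.25 ± 0.01, adjusted p = 0.00152), a spread between arrays smaller than that of Egr1. The dimmer Spry2 probe also rose by less (0.13, adjusted p = 0.0304). Maff, a small MAF transcription factor gene, also rose (0.21 ± 0.03, adjusted p = 0.00357), and all 3 of these genes passed in the deposited processed signals. The genes that fell were Per1, of the circadian clock (-0.35 ± 0.06, adjusted p = 0.000734), Plk3, a polo-like kinase gene (-0.27 ± 0.06, n = 3 since its spot on array 2 was an outlier; adjusted p = 0.00411), and Mcl1, an anti-apoptotic BCL2 relative (-0.12 ± 0.05, adjusted p = 0.0382). Mcl1 missed the threshold when the authors' processed signals were used (-0.08, adjusted p = 0.175). With median centring, where ratios differed with intensity, it had 0.41. Per1 and Plk3 stayed below 0 in both settings. The dimmer Mcl1 probe was not called (-0.03, adjusted p = 0.482). The count of 11 was 7 without array 2, 6 without array 3 and 7 without array 4.

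Genes whose 4 ratios were most like those of a called member, by root mean square difference among probes within 1 log2 unit of its mean intensity, were as follows. For Egr1 they were Tubgcp5 (0.0241) and Aopep (0.0287), of 3309 gene names compared. For Egr2 they were Ttl (0.00953) and Sema7a (0.0150), of 2874. Nr4a1 was nearest to Plagl1 (0.0361) and Sar1a (0.0401), of 985. Srf was nearest to Kti12 (0.0185) and Rcbtb1 (0.0190), of 3365. The brighter Ier2 probe was nearest to Eng (0.0253) and Cybc1 (0.0258), of 3313. The measure rests on 4 arrays and describes likeness of ratios only.

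**Figure D5:**
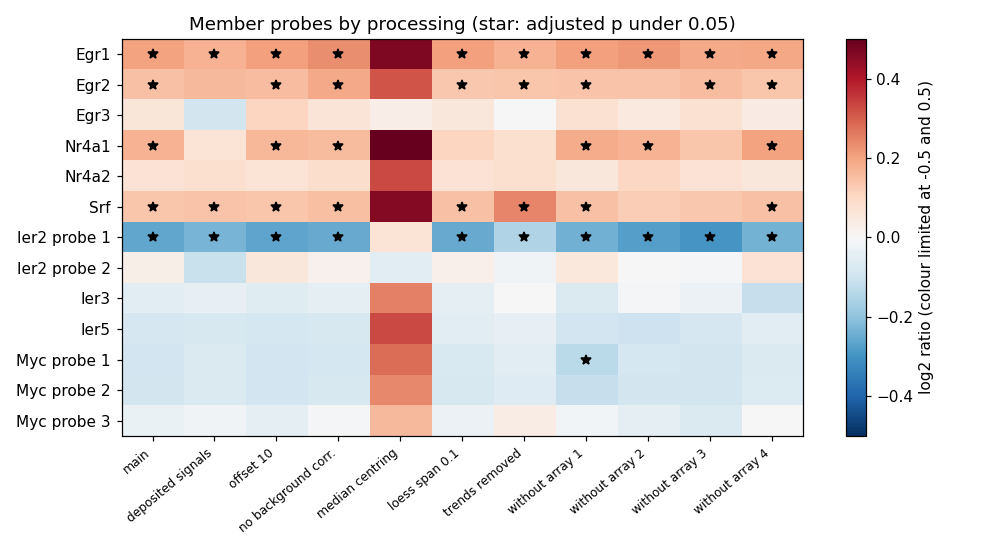
Log2 ratio of the 13 tested probes (rows) under the main processing and 10 alternatives (columns), as colour, with a star where the adjusted p was under 0.05. Egr1 and the brighter Ier2 probe carry a star in every column except median centring, where no probe has one.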

How the data were processed

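As deposited, each array has an intensity per spot and dye on a linear scale, with flags and a log10 ratio, Cy5 over Cy3. Per the file headers the authors used version 9.5.1.1 of Agilent Feature Extraction (9 in the submitters' processing notes). The deposited value table equals that log10 ratio at each of 45018 spots. Per the file headers, that software had subtracted background from the processed intensity and balanced the dyes.

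Here the mean signals were corrected by normexp with the median local background (offset 50), normalised within each array by loess (span 0.3, no weight on controls). Outlier spots were dropped, and the remaining spots of each probe were averaged. The test, on log2 ratios of 26545 probes, was limma (version 3.58.1, under R 4.3.3), two-sided and against 0. Levels per channel were scaled between arrays by Aquantile. The number of arrays limits the precision. The fit was tested on simulated data. Replicates are paired within each array by passage, so the ratio carries the pairing.

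Named genes are all 10 members, up to 3 called genes per direction of each other list, all paralogs and SRF cofactors, and for each called member the 2 genes nearest in ratios. The members and lists were chosen with earlier results of these data known. Alternatives covered background, normalisation, filter, outliers, variance prior, weights, passage, pairing, minimum change and each array left out.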

Additional observations from a re-analysis of the deposited data

How the results depend on the processing

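Egr1 and the brighter Ier2 probe passed in all settings tried except median centring, the minimum change of 1.2-fold and separate channels. Under median centring alone 0 probes of the whole table were called (limma), with 0 member probes or genes and 0 genes of the other lists, while an unadjusted p under 0.05 was reached by 968 probes upward and 38 downward, 1 of them a member. Sign turned there for both Ier2 probes (0.070 and -0.056), Ier3 (0.25), Ier5 (0.33) and the Myc probes (0.28, 0.24 and 0.16). The members that kept it had 0.47 for Egr1, 0.32 for Egr2, 0.035 for Egr3, 0.74 for Nr4a1, 0.33 for Nr4a2 and 0.46 for Srf. The median over all probes was 0.15. Without loess the ratios differed with intensity, so a sign there also carries the brightness of a probe. Against a minimum change of 1.2-fold 43 probes rose and 13 fell, with 0 members and, of the other lists, 1 gene upward and 0 downward (246 and 163 probes had an unadjusted p under 0.05). With no replicate block, where channels are unpaired, the calls were 328 upward and 248 downward, with 0 members and 1 gene of the other lists in each direction; the main result has 3776 and 3600.

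In the deposited processed signals 2864 probes rose and 2378 fell, and 2 member genes (2 probes) rose; the tested Egr3 probe had -0.091 and the dimmer Ier2 probe -0.11. With trends removed the dimmer Ier2 probe had -0.016 and the dimmest Myc probe 0.038. Array weights called 2 member probes and genes lower, and no filter called 2 member probes lower. The mean over a gene's probes, which for Ier2 takes in a probe near the background, called 0 member genes lower. An offset of 10 called 5 genes of the other lists lower, against 9. Leaving out 1 array in turn gave 2142 to 3515 probes higher and 2080 to 2736 lower, 2 to 4 member probes and genes higher and 1 to 2 lower, and 10 to 18 genes of the other lists higher and 4 to 9 lower; the dimmer Ier2 probe ran from -0.0091 to 0.073. The fewest were called higher without array 4 over all probes, and without array 2 or 3 among the members. The causes were not tested. Signal over background limits Egr3 and the dimmer Ier2 probe.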

Other observations

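A pair of genes of the other lists had the widest spread between arrays, and they are named after their values were seen. Klf2, a Krüppel-like factor gene, had -0.35, 0.05, 0.18 and -0.74 on arrays 1 to 4 (mean -0.22 ± 0.42, SD, n = 4; limma, adjusted p = 0.214). Max, the MYC partner gene, had 0.62, 0.30, 0.60 and -0.21 (mean 0.33 ± 0.39, adjusted p = 0.0613). Neither of these probes, the brightest of each gene, passed, and array 4 was lowest for both. The other Klf2 probe fell (-0.23 ± 0.11, adjusted p = 0.00647).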
